A study of Mus musculus with 40 samples.

Results

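Mouse branching lung organoids cultured as ALL-MTG were compared with organoids cultured as ALL-VC. The comparison rests on 4 of the 40 libraries of the series, 2 for each culture group, taken by their labels. Genes were kept when they reached 1 TPM in at least 2 of these 4 libraries, which left 13502 of 55260 listed gene symbols. TPM gives the abundance of a gene's transcripts as a share of all transcripts of the library, scaled to a fixed total. The study grew branched organoids from primary epithelial cells of the embryonic lung tip and profiled their RNA under several culture conditions. ALL-MTG and ALL-VC stand beside ALL-FGF10 and ALL, each also with 2 libraries, and all 8 libraries entered the fit. A separate set of single libraries carries the names 2C+VC and 2C+MTG, and their table also holds 1 library named ALL without a replicate number. That library did not enter the fit, and its value is given wherever the numbered ALL libraries are used for comparison. The labels give these names without defining ALL, 2C, MTG or VC. Reading a minus sign as a factor left out of the culture and a plus sign as a factor added is an assumption. Under it, all 4 libraries share the remainder of the ALL condition, ALL-MTG cultures kept VC, and ALL-VC cultures kept MTG. The labels give no strain, age of the donor embryos or culture time for these 4 libraries, nor do they state that replicate libraries came from separate animals or cultures. The p-values therefore measure only the spread between libraries of the same group, pooled over the 8 libraries of the fit, which may be technical.

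The distal tip of the embryonic lung holds progenitors that branch and give rise to the alveolar epithelium. Alveolar type 2 (AT2) cells make surfactant, the film of lipid and protein that keeps air spaces open, and also secrete defence proteins such as lysozyme. Alveolar type 1 (AT1) cells are thin and carry gas exchange, and cells passing between these fates are known for raised keratins. WNT, FGF, BMP and Notch signals steer these choices, while imprinted growth genes such as Igf2 are typical of embryonic tissue and are shut down as it matures.

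All 4 libraries carried lung epithelial markers. Nkx2-1, the transcription factor that marks lung epithelium, stood at 262 and 277 TPM in ALL-MTG and at 289.6 and 333 TPM in ALL-VC. Of the immune markers, 8 of 10 were at 0 in all 4 libraries, and Hnf4a and Cdx2, markers of other gut-derived organs, were at 0 as well. Libraries held 13036 to 13458 genes at 1 TPM or more in ALL-MTG and 13111 to 13410 in ALL-VC, and sequencing depth is unknown because TPM keeps none. Pearson correlations of log2(TPM + 1) across genes were 0.939 between the ALL-MTG libraries and 0.962 between the ALL-VC libraries, and 0.915 to 0.936 across the groups. The libraries were not of one sex. Xist, expressed from the inactive X chromosome of females, stood at 291 TPM in ALL-MTG replicate 1 and at 0.31 TPM in replicate 2, against 0.33 and 0.13 TPM in ALL-VC. Genes of 100 to 150 nt were listed above 0 only in ALL-MTG replicate 1 among these 4 libraries, where 21 such genes appeared.

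Of the 13502 genes, 100 differed between ALL-MTG and ALL-VC at an adjusted p under 0.05, which is 0.741% of those tested. Of these, 64 were higher in ALL-MTG (0.474% of the genes tested) and 36 were lower (0.267%). Differences are of log2(TPM + 1), ALL-MTG minus ALL-VC, from limma with Benjamini-Hochberg adjustment over all genes tested, a scale that understates changes of low genes. The ALL-MTG and ALL-VC libraries did not overlap for any of the 100. Over all genes tested, 2013 had both ALL-MTG libraries above both ALL-VC libraries (14.9%) and 4387 had both below (32.5%), so absence of overlap alone was common. The median difference over all genes was -0.12, and -0.01 after median-ratio rescaling of the libraries, and the medians of gene groups below are read against it. An exact permutation test of 2 libraries against 2 cannot give a p below 0.333, so single-gene tests depend on the spread that limma shares across genes. The number of calls depended on single libraries. It was 5 without ALL-VC replicate 1, 14 without ALL-VC replicate 2 and 37 without ALL-MTG replicate 1. It was 216 without ALL-MTG replicate 2, 30 without either ALL-FGF10 library, 161 without ALL replicate 1 and 163 without ALL replicate 2. The 5 genes called without ALL-VC replicate 1 were Ctsz, Ahcy, Gm10221, Gm7887 and Gm9794, so every other call named in the text was lost when that library was left out. No called gene changed direction under any of the 20 alternative settings.

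**Figure D1:**
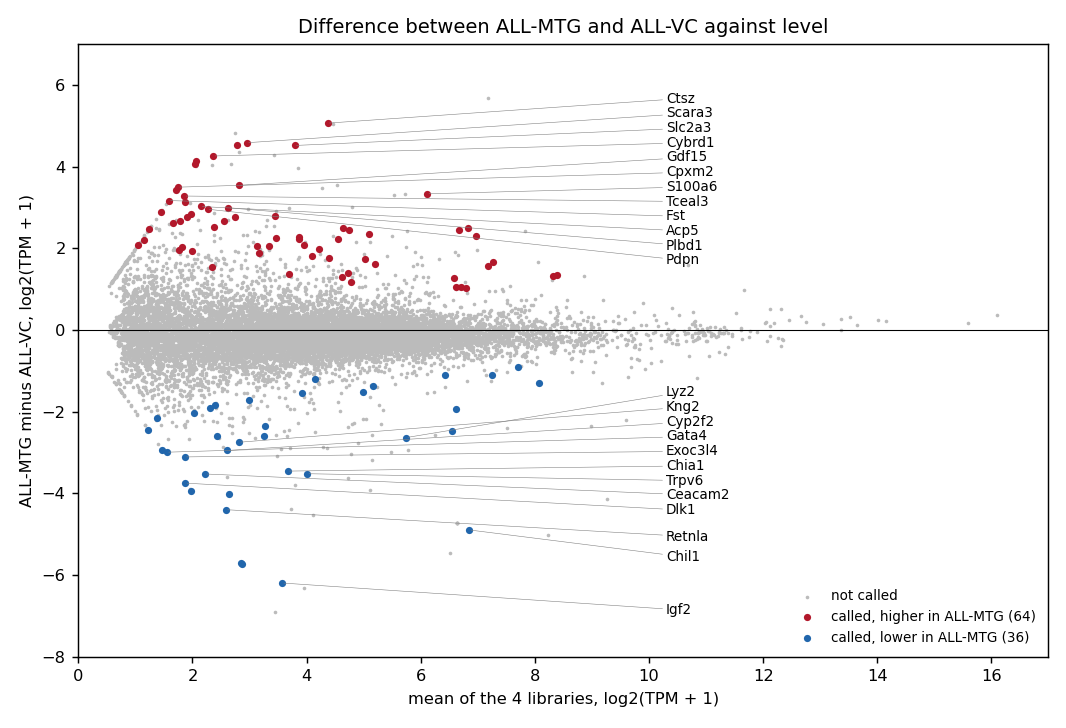
Difference of log2(TPM + 1), ALL-MTG minus ALL-VC (y axis), against the mean log2(TPM + 1) of the 4 libraries (x axis) for the 13502 genes tested. The 64 called genes above 0 and the 36 below 0 are coloured, and 12 rises, led by Ctsz at 5.06, and 12 falls, led by Igf2 at -6.19, are named, leaving out predicted genes.

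**Figure D2:**
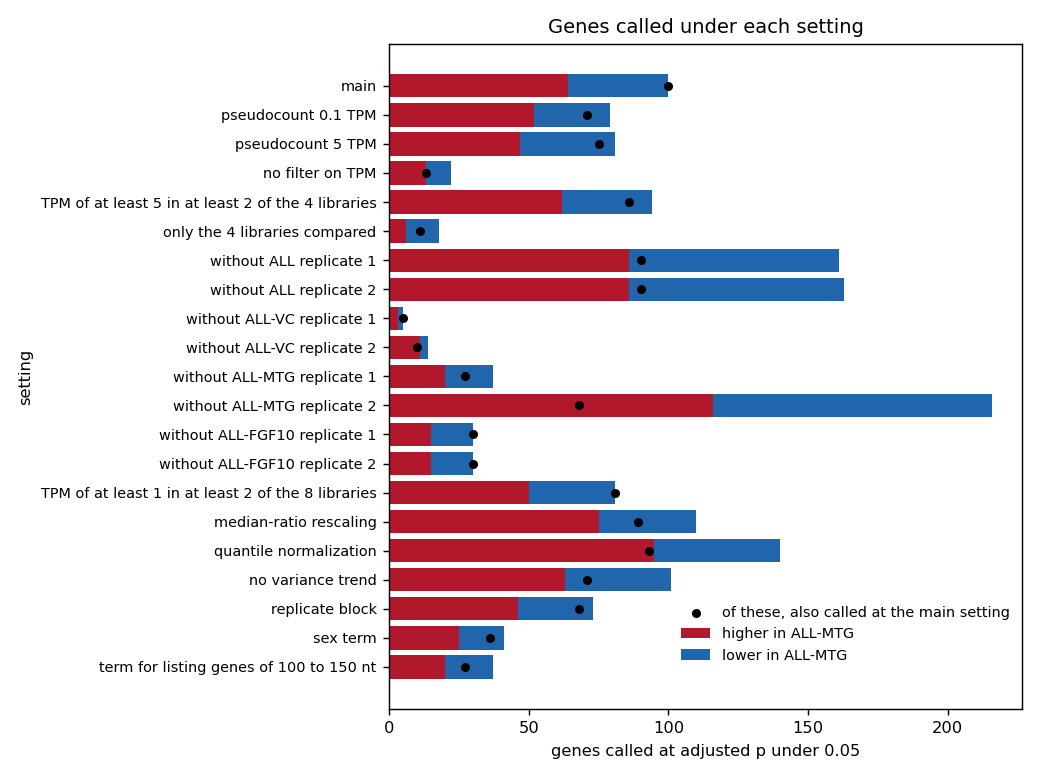
Number of genes called higher and lower in ALL-MTG than in ALL-VC under each setting (stacked bars from 0), with a dot for how many of these are among the 100 calls as reported. The count is 100 as reported, 5 without ALL-VC replicate 1 and 216 without ALL-MTG replicate 2.

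The largest rise among the called genes belonged to Ctsz, which encodes cathepsin Z, a lysosomal carboxypeptidase, on chromosome 2 at 174427493-174439039 (GRCm38). Its level was 134 and 104 TPM in ALL-MTG, against 1.26 and 4.65 TPM in ALL-VC. The ALL-VC libraries stood apart not only from ALL-MTG, by a log2 difference of 5.06 (SE 0.39, adjusted p = 0.00376), but also from the other cultures of the fit. ALL-FGF10 libraries held 97.4 and 106.6 TPM of Ctsz, the numbered ALL libraries held 90.9 and 124 TPM, and the unnumbered ALL library held 136 TPM. Ctsz was called in all 20 alternative settings. Pdpn, the AT1 membrane glycoprotein podoplanin, followed the same order. It stood at 17.2 and 8.83 TPM in ALL-MTG, against 0.66 and 0.79 TPM in ALL-VC, and at 22.5 and 20.2 TPM in the numbered and 8.7 TPM in the unnumbered ALL libraries. Its difference was 2.96 (SE 0.32, adjusted p = 0.0126), with the ALL-VC libraries the low ones.

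Scara3, a member of the scavenger receptor family, rose to 46.1 and 29.6 TPM in ALL-MTG, against 0.09 and 1.3 TPM in ALL-VC, a difference of 4.58 (SE 0.42, adjusted p = 0.00738). Slc2a3, the glucose transporter GLUT3 (chromosome 6, 122727809-122801640), rose to 100.6 and 42.2 TPM in ALL-MTG, against 0.99 and 3.21 TPM in ALL-VC (difference 4.52, SE 0.49, adjusted p = 0.0126). For these 2 genes even the lower ALL-MTG library was several times the higher ALL-VC library. Cybrd1, a membrane reductase of ferric iron, was less even within ALL-MTG, at 43.7 and 10.4 TPM, against 0.06 and 0.31 TPM in ALL-VC (difference 4.26, SE 0.57, adjusted p = 0.0234). S100a6, a calcium-binding protein, rose to 347 and 137 TPM in ALL-MTG, against 12.9 and 33.1 TPM in ALL-VC (difference 3.33, SE 0.49, adjusted p = 0.0296). In these genes ALL-MTG replicate 1 was the highest of the 4 libraries. Gdf15, a stress-induced secreted factor of the TGF-beta family, stood at 32.25 and 16.3 TPM in ALL-MTG, against 0.8 and 1.36 TPM in ALL-VC (difference 3.54, SE 0.59, adjusted p = 0.048). The ALL libraries spanned the range of both groups, at 11.51 and 46.8 TPM in the numbered and 1.06 TPM in the unnumbered ones.

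Other large rises began from values at or near 0. Fst encodes follistatin, a secreted antagonist of activin, and was listed at 12.85 and 4.83 TPM in ALL-MTG but at 0 in both ALL-VC libraries (adjusted p = 0.0281). Fst was also near 0 in ALL, at 0 and 0.13 TPM in the numbered and 0.2 TPM in the unnumbered libraries, so here ALL-MTG was the group that stood apart. Cpxm2, of the carboxypeptidase X family, was listed at 17.8 and 5.77 TPM in ALL-MTG and at 0 in both ALL-VC libraries (adjusted p = 0.0281). Acp5, tartrate-resistant acid phosphatase, rose to 12.45 and 10.8 TPM in ALL-MTG, against 0 and 1.4 TPM in ALL-VC (adjusted p = 0.0281). The ALL libraries resembled ALL-MTG for Acp5, at 15.9 and 9.57 TPM in the numbered and 20.1 TPM in the unnumbered ones, but not for Cpxm2, at 0.74 and 0.21 TPM in the numbered and 1.38 TPM in the unnumbered ones. Plbd1, a phospholipase B-like protein, rose to 26.3 and 10.1 TPM in ALL-MTG, against 0.86 and 1.58 TPM in ALL-VC (adjusted p = 0.0296). Tceal3, an X-linked gene, rose to 15.2 and 6.84 TPM in ALL-MTG, against 0 and 0.35 TPM in ALL-VC (adjusted p = 0.0207). In both, the ALL-MTG library with the higher value was replicate 1.

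**Figure D3:**
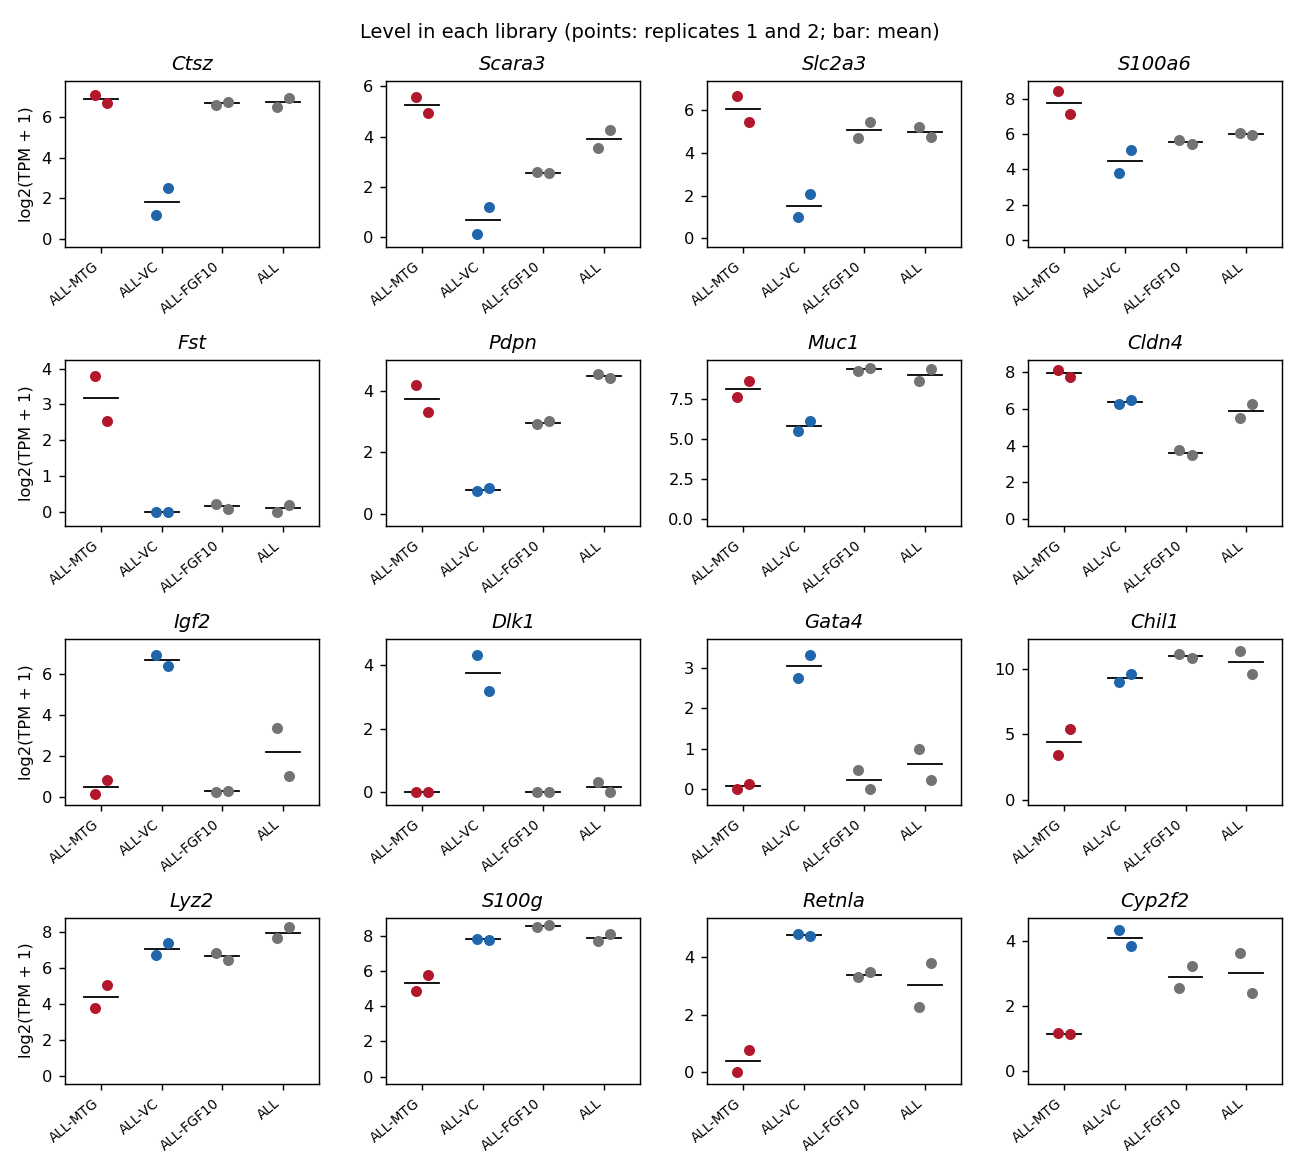
Level as log2(TPM + 1) (y axis, each panel with its own range) of 16 called genes in the libraries of ALL-MTG, ALL-VC, ALL-FGF10 and ALL; each point is 1 library and each bar the mean of 2. The ALL-MTG and ALL-VC points do not overlap in any panel, with Ctsz at 134 and 104 TPM in ALL-MTG and at 1.26 and 4.65 TPM in ALL-VC.

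The largest fall among the called genes belonged to Igf2, the imprinted embryonic growth factor on chromosome 7 at 142650766-142666816 (GRCm38). It stood at 0.09 and 0.77 TPM in ALL-MTG, against 119.9 and 84.5 TPM in ALL-VC, a difference of -6.19 (SE 0.68, adjusted p = 0.0126). ALL-VC was the highest of the 4 fitted groups, since ALL-FGF10 libraries held 0.17 and 0.21 TPM of Igf2 and the numbered ALL libraries 9.25 and 0.98 TPM. The unnumbered ALL library, at 66.1 TPM, was nearer to ALL-VC, so the high level was not limited to ALL-VC. Dlk1, an imprinted membrane protein related to Notch ligands, was listed at 0 in both ALL-MTG libraries and at 18.9 and 8.09 TPM in ALL-VC (adjusted p = 0.0126). Gata4, a transcription factor of early endoderm and heart, fell to 0 and 0.08 TPM in ALL-MTG, against 5.77 and 9.1 TPM in ALL-VC (difference -2.99, SE 0.41, adjusted p = 0.0252). Both Dlk1 and Gata4 were below 1 TPM in the ALL-FGF10 and numbered ALL libraries, so ALL-VC was the high group of the fit. The unnumbered ALL library held Gata4 at 0 TPM but Dlk1 at 64.6 TPM, above both ALL-VC libraries.

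Chil1, a chitinase-like protein made by AT2 cells and macrophages (chromosome 1, 134182176-134190181), fell to 9.36 and 42.3 TPM in ALL-MTG, against 504 and 786 TPM in ALL-VC (difference -4.90, SE 0.70, adjusted p = 0.0288). ALL-MTG was the lowest fitted group for Chil1, since the numbered ALL libraries held 2615 and 793 TPM, and the unnumbered ALL library lay between ALL-MTG and ALL-VC at 98.2 TPM. Retnla, a resistin-like secreted protein, fell to 0 and 0.71 TPM in ALL-MTG, against 27.1 and 26.1 TPM in ALL-VC (difference -4.40, SE 0.49, adjusted p = 0.0126). Chia1, the acidic mammalian chitinase, fell to 1.58 and 4.73 TPM in ALL-MTG, against 37.7 and 44.9 TPM in ALL-VC (difference -3.45, SE 0.45, adjusted p = 0.0193). Kng2, a kininogen, fell to 1.08 and 2.55 TPM in ALL-MTG, against 18.2 and 16.4 TPM in ALL-VC (difference -2.75, SE 0.26, adjusted p = 0.00738). The ALL-VC libraries were close to each other for Retnla and Kng2, and ALL-MTG was the lowest fitted group for both, and also lay below the unnumbered ALL library, which held 147 TPM of Retnla and 9.78 TPM of Kng2.

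Trpv6, an epithelial calcium channel, fell to 1.94 and 6.7 TPM in ALL-MTG, against 50.8 and 56.4 TPM in ALL-VC (difference -3.52, SE 0.43, adjusted p = 0.0159). S100g, the cytosolic calcium buffer calbindin-D9k, fell to 27.8 and 52.9 TPM in ALL-MTG, against 225 and 213 TPM in ALL-VC (difference -2.48, SE 0.28, adjusted p = 0.0126). The ALL libraries held S100g near the ALL-VC level, at 203 and 268 TPM in the numbered and 291 TPM in the unnumbered ones, so ALL-MTG was the low group. Exoc3l4, named for its likeness to an exocyst subunit, fell to 0.4 and 0.1 TPM in ALL-MTG, against 10.2 and 9.19 TPM in ALL-VC (difference -3.11, SE 0.32, adjusted p = 0.0116). Ceacam2, an adhesion molecule, fell to 0.9 and 0 TPM in ALL-MTG, against 12.35 and 17.9 TPM in ALL-VC (difference -3.53, SE 0.40, adjusted p = 0.0126).

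The AT2 list had more called members than any other of the 33 lists, 4 of 20, beside 0.741% of all genes tested. Muc1, an epithelial surface mucin, was higher in ALL-MTG, and Chil1, Lyz2 and S100g were lower. Their promoters are shown because they carry the AT2 members that moved, in both directions. Each run is 250 bases before to 50 after the annotated start, 5′ to 3′ on the strand of the gene, from RefSeq on GRCm38.p6. The windows are chr1:134181906-134182205 on the plus strand for Chil1, chr10:117282223-117282522 on the minus strand for Lyz2, chrX:162964550-162964849 on the minus strand for S100g and chr3:89228806-89229105 on the plus strand for Muc1. Capitals mark motif matches.
Chil1: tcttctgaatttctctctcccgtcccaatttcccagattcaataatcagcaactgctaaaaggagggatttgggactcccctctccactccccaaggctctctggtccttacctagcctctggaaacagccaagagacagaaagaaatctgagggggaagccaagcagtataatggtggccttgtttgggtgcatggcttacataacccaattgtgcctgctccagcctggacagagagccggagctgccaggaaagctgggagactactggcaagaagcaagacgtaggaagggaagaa
Lyz2: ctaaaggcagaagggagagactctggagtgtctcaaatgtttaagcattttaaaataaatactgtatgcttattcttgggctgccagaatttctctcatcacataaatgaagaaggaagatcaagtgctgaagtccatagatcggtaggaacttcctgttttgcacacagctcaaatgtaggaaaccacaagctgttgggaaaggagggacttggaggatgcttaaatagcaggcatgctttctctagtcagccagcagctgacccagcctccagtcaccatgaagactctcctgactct
S100g: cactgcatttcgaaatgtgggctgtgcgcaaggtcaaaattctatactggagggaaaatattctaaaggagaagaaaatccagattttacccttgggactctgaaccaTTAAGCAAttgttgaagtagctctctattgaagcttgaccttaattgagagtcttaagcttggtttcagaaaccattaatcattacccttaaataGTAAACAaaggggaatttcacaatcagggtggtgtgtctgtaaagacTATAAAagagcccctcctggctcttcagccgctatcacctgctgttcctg
Muc1: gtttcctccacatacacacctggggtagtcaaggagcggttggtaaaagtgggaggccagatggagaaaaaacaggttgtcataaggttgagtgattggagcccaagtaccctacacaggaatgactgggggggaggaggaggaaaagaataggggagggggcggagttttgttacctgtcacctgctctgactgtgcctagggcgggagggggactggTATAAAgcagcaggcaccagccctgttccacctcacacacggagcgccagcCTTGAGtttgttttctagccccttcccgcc

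Both strands were searched for 5 motifs, listed here with the share of promoters that hold each. The letters TTGCNNAA stand for the C/EBP motif, which 10.8% of 27025 RefSeq promoters of the same length held. The NKX2-1 motif, searched as CTCAAG, was held by 16.2% of them. The FOXA motif, searched as TGTTTAC, was held by 3.55% of these promoters. The TCF/LEF motif, searched as ATCAAAG, was held by 3.72% of the same promoters. The TATA box, searched as TATAAA, was held by 14.2%. The S100g window held the C/EBP and FOXA motifs on the minus strand, at -142 and -47 bases from the annotated start. Its TATAAA match was on the plus strand at 0, at the annotated start itself. The Muc1 window held the NKX2-1 motif on the minus strand, 20 bases after the start, and TATAAA on the plus strand at -31. No match overlapped another. The Chil1 and Lyz2 windows held none of these letters, which says nothing about the factors.

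Muc1 rose to 196 and 391 TPM in ALL-MTG, against 44.3 and 69.9 TPM in ALL-VC (difference 2.29, SE 0.37, adjusted p = 0.0408). Lyz2, a lysozyme, fell to 13.0 and 32.1 TPM in ALL-MTG, against 105 and 168 TPM in ALL-VC (difference -2.63, SE 0.42, adjusted p = 0.0377). For Lyz2 ALL-MTG was the lowest fitted group, but the unnumbered ALL library was lower still at 7.05 TPM. For Muc1 ALL-VC was the low group, as ALL held 391 and 653 TPM in the numbered and 141 TPM in the unnumbered libraries. Surfactant protein C (Sftpc) did not pass the test. It stood at 80426 and 78632 TPM in ALL-MTG, against 58956 and 64469 TPM in ALL-VC (difference 0.37, adjusted p = 0.604). The AT2 list thus held called members in both directions, with 16 of 20 not called and a median of -0.23, beside -0.12 for all genes.

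The called AT1 and keratin genes were higher in ALL-MTG. Of 20 AT1 genes, Pdpn alone was called, and the list median was 0.13. Ager, the AT1 receptor RAGE, was at 548 and 1040.2 TPM in ALL-MTG and at 917 and 896 TPM in ALL-VC, so the groups overlapped (adjusted p = 0.698). Of 16 keratin and transitional genes, Krt18, Cldn4 and S100a6 rose and 13 were not called, with a median of 0.79. Krt18, a keratin of simple epithelia, rose to 644 and 444 TPM in ALL-MTG, against 209.7 and 209 TPM in ALL-VC (difference 1.35, SE 0.22, adjusted p = 0.0395). Cldn4, a tight junction claudin also counted in the lung identity list, rose to 279 and 217 TPM in ALL-MTG, against 77.2 and 89.4 TPM in ALL-VC (difference 1.56, SE 0.26, adjusted p = 0.0499). Both ALL-MTG libraries exceeded both ALL-VC libraries for 11 of these 16 genes, where 14.9% of all genes did so. Krt8, the partner keratin of Krt18, was not called at 598 and 399 TPM in ALL-MTG, against 289 and 297 TPM in ALL-VC (adjusted p = 0.143).

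Of 6 tested genes of club cells, the secretory cells of the airways, 1 rose and 1 fell. Cckar, the cholecystokinin A receptor, rose to 72.9 and 46.3 TPM in ALL-MTG, against 6.35 and 14.2 TPM in ALL-VC (difference 2.49, SE 0.38, adjusted p = 0.0337). Cyp2f2, a cytochrome P450 of club cells, fell to 1.21 and 1.19 TPM in ALL-MTG, against 19.1 and 13.4 TPM in ALL-VC (difference -2.95, SE 0.44, adjusted p = 0.0314). The ALL-MTG libraries were nearly equal for Cyp2f2 and lay below every other library of the fit, while the unnumbered ALL library was at 0.98 TPM. None of the 11 tested distal tip genes or 7 tested ciliated cell genes was called.

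Signalling lists held at most 1 called gene each. Of 15 tested WNT response genes, Tnfrsf19 alone was called. It encodes a receptor of the TNF family and rose to 18.9 and 20.3 TPM in ALL-MTG, against 3.44 and 4.56 TPM in ALL-VC (difference 2.05, SE 0.25, adjusted p = 0.0168). The median of the list was 0.46, and Axin2, a standard WNT target, was not called at 34.2 and 29.5 TPM in ALL-MTG, against 26.2 and 17.0 TPM in ALL-VC (adjusted p = 0.486). Of 17 BMP and TGF-beta genes, Fst was called. Of 10 YAP targets, F3, the coagulation factor receptor tissue factor, was called and rose to 65.1 and 61.6 TPM in ALL-MTG, against 16.0 and 25.2 TPM in ALL-VC (difference 1.61, SE 0.25, adjusted p = 0.0348). None of the 14 FGF response genes was called, with a median of 0.19, and none of the 3 tested Hedgehog genes. Of 9 tested Notch genes, Dlk1 fell, and Hes1, a direct Notch target, was at 62.3 and 59.7 TPM in ALL-MTG and at 59.4 and 58.7 TPM in ALL-VC (adjusted p = 0.948).

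Of 13 tested mucosal defence genes, Lyz2 fell and 12 were not called, with a median of -0.63. In 8 of these 13 both ALL-MTG libraries were below both ALL-VC libraries, where 32.5% of all genes were. Lcn2, an iron-sequestering lipocalin, was at 223 and 585 TPM in ALL-MTG and at 1507 and 1865 TPM in ALL-VC, and Lyz1, a lysozyme, was at 40.6 and 516 TPM in ALL-MTG and at 2129 and 3178 TPM in ALL-VC. Neither passed the test (adjusted p = 0.0663 for Lcn2 and 0.124 for Lyz1), and the ALL-MTG libraries differed widely from each other. Of 7 listed MHC class II genes, H2-Ab1, a chain of the antigen-presenting dimer, was called. It rose to 114 and 50.6 TPM in ALL-MTG, against 12.3 and 16.3 TPM in ALL-VC (difference 2.35, SE 0.33, adjusted p = 0.0281). The numbered ALL libraries were higher than either group, at 406 and 438 TPM, and the unnumbered ALL library lay within the ALL-MTG range at 86.5 TPM. Cd74, the chaperone of class II molecules, was not called at 919 and 592 TPM in ALL-MTG, against 234 and 369 TPM in ALL-VC (adjusted p = 0.074). Outside the list, H2-DMb2 was also called higher in ALL-MTG (difference 1.36, adjusted p = 0.0377). H2-Ea-ps, annotated as a pseudogene and also outside the list, was called lower (difference -2.04, adjusted p = 0.0371). The class II list median was 0.78, and none of the 8 MHC class I or 11 interferon genes tested was called. Of 14 tested cathepsin and lysosome genes, Ctsz alone was called, with a list median of 0.10.

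Over all genes tested, 8626 of 13502 had a difference below 0, and the counts of members below 0 given here are to be read beside that. Of 13 imprinted growth genes, Igf2 and Dlk1 fell and 11 were not called. The list median was -0.81, and in 10 of the 13 both ALL-MTG libraries were below both ALL-VC libraries, where 32.5% of all genes were. Cdkn1c, an imprinted inhibitor of cell division, was not called at 12.45 and 11.46 TPM in ALL-MTG, against 52.4 and 71.6 TPM in ALL-VC (adjusted p = 0.173). Of 19 tested glycolysis and hypoxia genes, the transporter Slc2a3 rose, 18 were not called and 17 had a difference below 0, with a list median of -0.71. Pkm, pyruvate kinase, stood at 270.0 and 287 TPM in ALL-MTG and at 494 and 658 TPM in ALL-VC (adjusted p = 0.0663). None of 20 proliferation genes was called, although 19 were below 0 with a median of -0.52. Top2a, a topoisomerase of dividing cells, was at 50.2 and 79.0 TPM in ALL-MTG and at 137 and 84.2 TPM in ALL-VC (adjusted p = 0.473). None of the 16 cholesterol synthesis genes was called, with 15 below 0 and a median of -0.36, and neither the 16 tested basement membrane genes (median -0.17) nor the 13 amino acid stress genes (8 above 0, median 0.25) held a call. As these are bulk samples, fewer cells of a type and less RNA per cell cannot be told apart.

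**Figure D4:**
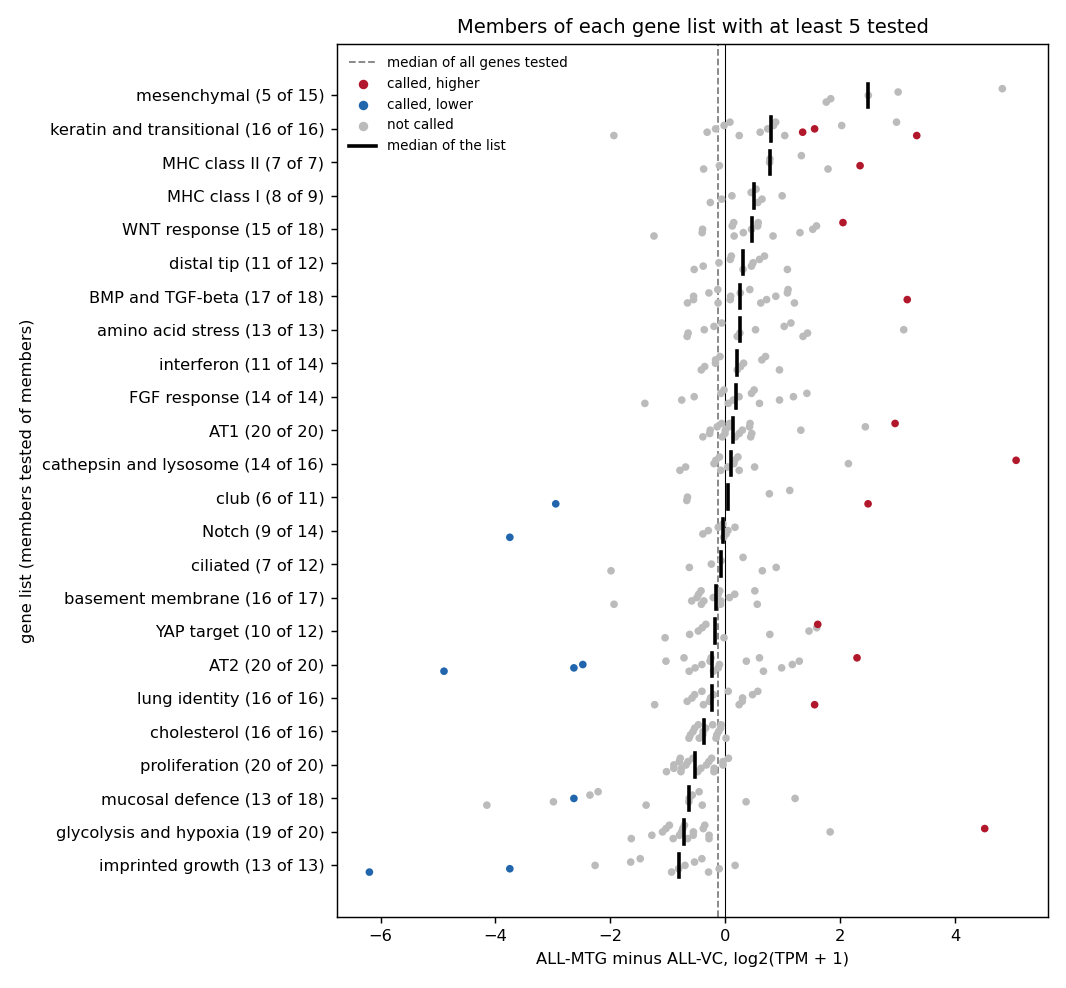
Difference of log2(TPM + 1), ALL-MTG minus ALL-VC, for each tested member of the gene lists with at least 5 tested genes (points), with list medians as short vertical lines and called members coloured. The dashed line is the median of all genes tested, -0.12; the keratin and transitional list lies above it at 0.79 and the imprinted growth list below it at -0.81.

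Genes of mesenchyme, the connective tissue beside the epithelium, had no call. Their summed level was 291 and 86.6 TPM in ALL-MTG, against 12.6 and 11.2 TPM in ALL-VC, from a list of 15 genes of which 5 were tested. All 5 tested genes had both ALL-MTG libraries above both ALL-VC libraries, where 14.9% of all genes did, and their median of 2.49 was the largest of any list. The sum rested on Dcn, a matrix proteoglycan, at 168 and 6.57 TPM in ALL-MTG, against 0.6 and 0 TPM in ALL-VC (adjusted p = 0.124), and on Vim, an intermediate filament protein, at 84.8 and 70.9 TPM in ALL-MTG, against 10.4 and 7.34 TPM in ALL-VC (adjusted p = 0.0776). Of the 15 list members, 4 were at 0 in all 4 libraries, among them the fibroblast gene Pdgfra, and of the fixed fibroblast markers Col3a1 did not exceed 0.06 TPM while Col1a1 stood at 11.3 and 1.49 TPM in ALL-MTG, against 0.27 and 1.1 TPM in ALL-VC. Within ALL-MTG, replicate 1 was also the higher library for Fst, S100a6 and Slc2a3. In the numbered ALL libraries the sum was 143.1 TPM in replicate 1 and 11.18 TPM in replicate 2. Dcn held 7.24 TPM and Vim 25.3 TPM in ALL replicate 1, so its sum rested mostly on other genes than in ALL-MTG. In the numbered ALL libraries Fst was at 0 and 0.13 TPM, S100a6 at 64.9 and 61.1 TPM and Slc2a3 at 35.3 and 25.7 TPM. The unnumbered ALL library had a sum of 31.6 TPM, with Fst at 0.2 TPM, S100a6 at 53.2 TPM and Slc2a3 at 63.5 TPM. The part of mesenchymal RNA in these results was not tested. No neuronal or mesothelial marker passed the filter, and of 3 tested genes of other endoderm Gata4 fell.

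The libraries named 2C+VC and 2C+MTG share no library with the fit and give a look at the same pair of factors under additions. With 1 library each there is no test, so the values are a description. Among all 13502 genes, 10.4% differed by at least 1 on the log2(TPM + 1) scale, in either direction, between 2C+VC and 2C+MTG. The difference 2C+VC minus 2C+MTG had the same sign as ALL-MTG minus ALL-VC for 54.58% of the genes tested. Of the genes called higher in ALL-MTG, 51 of 64 had the same sign in the 2C libraries (79.69%), beside 63.12% of all tested genes above 0. Of the genes called lower in ALL-MTG, 14 of 36 did so (38.89%), beside 49.76% of all tested genes below 0.

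The genes with the same direction include several of the largest rises. Ctsz stood at 147 TPM in 2C+VC, against 8.56 TPM in 2C+MTG, and Pdpn at 17.9 TPM in 2C+VC, against 0.86 TPM in 2C+MTG. Muc1 stood at 532 TPM in 2C+VC, against 18.5 TPM in 2C+MTG. Thus all 3 were higher in 2C+VC than in 2C+MTG, and higher in ALL-MTG than in ALL-VC. Igf2 and Gata4, lower in ALL-MTG than in ALL-VC, were also lower in 2C+VC than in 2C+MTG. Igf2 stood at 44.0 TPM in 2C+VC, against 693 TPM in 2C+MTG, and Gata4 at 0.48 TPM in 2C+VC, against 6.9 TPM in 2C+MTG. Among called-higher genes, 31 differed by at least 1 on the log2 scale in the same direction and 1 in the opposite, Slc2a3, at 2.99 TPM in 2C+VC, against 27.8 TPM in 2C+MTG. Of all 4875 tested genes above 0, 497 differed by at least 1 in the same direction and 148 in the opposite. Other genes called lower in ALL-MTG had the opposite sign in the 2C libraries. Chil1 stood at 416 TPM in 2C+VC, against 1.61 TPM in 2C+MTG, Lyz2 at 105 TPM in 2C+VC, against 0.82 TPM in 2C+MTG, and Cyp2f2 at 179 TPM in 2C+VC, against 3.24 TPM in 2C+MTG. Retnla stood at 308 TPM in 2C+VC, against 12.3 TPM in 2C+MTG. Of the called-lower genes, 12 differed by at least 1 in the opposite direction and 4 in the same. Of all 8626 tested genes below 0, 438 did so in the opposite direction and 327 in the same. Igf2 and Chil1, the largest falls in ALL-MTG among genes without predicted names, thus had opposite orders in the 2C libraries.

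**Figure D5:**
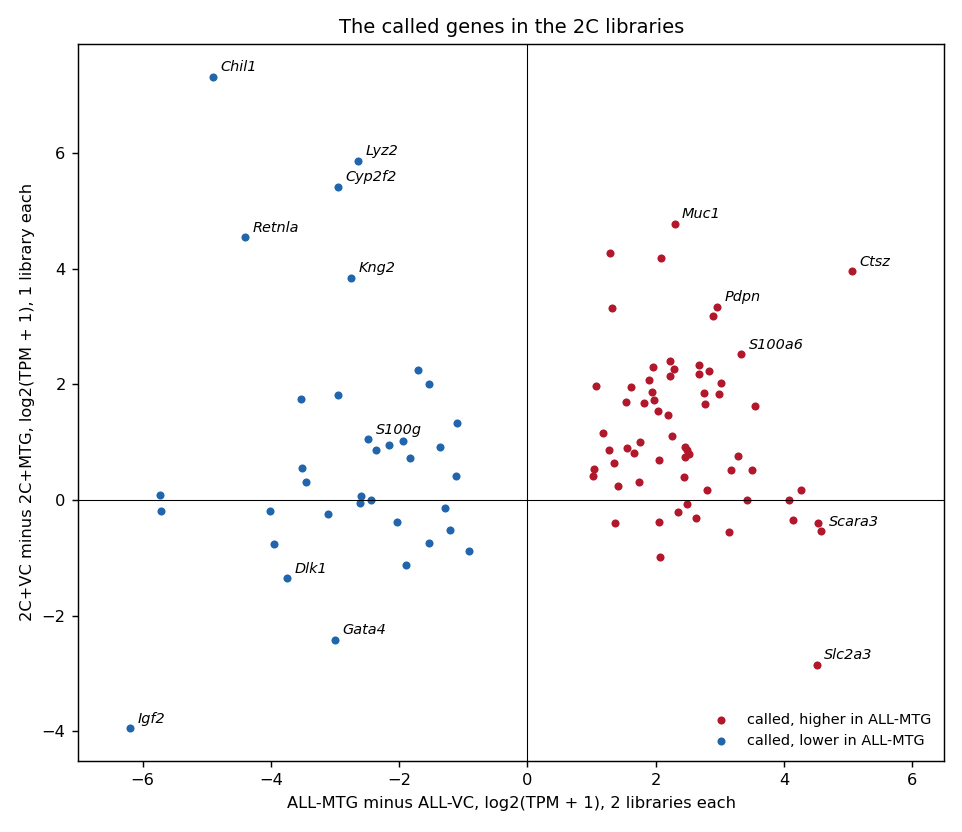
Difference of log2(TPM + 1) in 2C+VC minus 2C+MTG (y axis, 1 library each) against the difference in ALL-MTG minus ALL-VC (x axis, 2 libraries each) for the 100 called genes. Of the 64 genes called higher, 51 lie above 0 on the y axis, and of the 36 called lower 14 lie below 0, with Chil1 at 7.32 among the others.

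Near-identical transcripts limit some calls. Of the 100 called genes, 23 had a transcript at least 95% identical to that of another gene over at least 50% of its length, and 17 carry predicted, clone or pseudogene names. Ahcy, the enzyme that clears S-adenosylhomocysteine, was called higher at 29.2 and 26.25 TPM in ALL-MTG, against 3.79 and 2.57 TPM in ALL-VC (difference 2.79, SE 0.24, adjusted p = 0.00677). Its copy Gm4737 ran the other way, and Ahcy with its copies summed to 64.8 and 69.1 TPM in ALL-MTG, against 98.3 and 74.0 TPM in ALL-VC, so the order of the groups was the opposite in the sum. Ceacam2 with Ceacam1 summed to 41.6 and 34.7 TPM in ALL-MTG, against 22.9 and 34.2 TPM in ALL-VC, also opposite to the fall of Ceacam2 alone. Lyz2 with Lyz1 summed to 53.6 and 548 TPM in ALL-MTG, against 2233 and 3346 TPM in ALL-VC, which keeps the order. The calls of Ahcy and Ceacam2 are therefore uncertain, as reads shared with a copy could have been split between them. Gm9794, Gm7887 and Gm10221, called like Ahcy under all 20 alternative settings, also had near-identical transcripts of other genes. These were Rpl23 for Gm9794, Pcnp for Gm7887, and Atp5l among others for Gm10221. Ctsz, the remaining gene called under all of them, had none. Ahcy lies outside the rule by which genes were named and was chosen after its values were seen.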

How the data were processed

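RNA was measured in mouse lung organoids with an mRNA library kit on an Illumina NovaSeq X Plus, per the labels. The authors deposited TPM values. The submitters' processing notes name RSEM, Bowtie2 and mm10, without versions. Counts were not used here, so depth and the counting precision it gives are unknown. Columns were matched to libraries by title. Values were taken as log2(TPM + 1), with a pseudocount of 1 TPM, for genes that reached 1 TPM in 2 or more of the 4 libraries. The 8 numbered ALL libraries were fitted without covariates in limma 3.58.1 (lmFit, eBayes with a variance trend, two-sided, R 4.3.3), with Benjamini-Hochberg adjustment over the genes tested and calls at an adjusted p under 0.05. The fit was tested on simulated data. Gene lists (33 lists, 424 genes) and members were chosen with earlier results of these data known, and were counted, not tested. Named were called genes with the 12 strongest increases and 12 strongest decreases, given a mean of at least 5 TPM in the higher group and no overlap, without predicted, clone, pseudogene or mitochondrial genes, plus up to 4 called and the 3 most abundant members per list, and sex-linked genes. Among genes the rule named, the text gives a selection. Sfn, C3, Hdc, Csf1, Wfdc2, Scnn1a, Bhlhe40, Icam1 and mt-Co3 in the closing section, H2-DMb2 and H2-Ea-ps, the copies, and the predicted genes called in all settings fall outside that rule and were picked with their values known. Coordinates are from GENCODE M21 on GRCm38, and transcripts were compared with blastn 2.17.0. Alternatives changed the pseudocount, filter, scaling, variance model, covariates and libraries.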

Additional observations from a re-analysis of the deposited data

How the results depend on the processing

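Counts of called genes fell to 22 (13 higher and 9 lower in ALL-MTG) with no filter on TPM. They fell to 18 (6 higher, 12 lower) with only the 4 libraries compared and to 41 (25 higher, 16 lower) with a term for sex. A term for listing genes of 100 to 150 nt gave 37 (20 higher, 17 lower). That term varied within a group only in ALL-MTG. It therefore acted much as leaving out ALL-MTG replicate 1 and is no separate check. Leaving out 1 library gave 5 to 216 calls, 3 to 116 higher and 2 to 100 lower, with a lone remaining library assumed to vary like the other groups. The cause was not tested. Pseudocounts of 0.1 and 5 TPM, a TPM minimum of 5, median-ratio and quantile scaling and no variance trend gave 79 to 140 calls. A filter over the 8 libraries, chosen after seeing the data, gave 81, and 5 genes were called under all 20 alternatives. Groups share replicate numbers, but deviations of same-numbered libraries correlated at -0.0941 to 0.1212 between groups, so the numbers were not taken as pairs. With the replicate number as a block, 73 genes were called (46 higher, 27 lower), 68 of them among the 100. No gene called in the report changed direction. Among uncalled ones, leaving out 1 library gave differences of -0.72 to 0.20 for Ager and of -10.46 to 0.40 for mt-Co3, Ager also had 0.20 with the term for genes of 100 to 150 nt, and Sftpc had 0 under quantile scaling, where the values as reported were -0.26 for Ager, -5.03 for mt-Co3 and 0.37 for Sftpc. TPM keeps no depth, so what depth limits could not be measured, and with 2 libraries a group small changes may be missed. The share of called genes with the same sign in the 2C libraries ranged from 62.03 to 65.96% across pseudocounts and the stricter filter.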

Other observations

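Further called genes, chosen after their values were seen, are given as values. Hdc, the enzyme that makes histamine, rose to 188 and 383 TPM in ALL-MTG, against 59.3 and 37.2 TPM in ALL-VC (difference 2.49, adjusted p = 0.0241, limma). Wfdc2, a secreted protease inhibitor of airway epithelium, rose to 509.6 and 493 TPM in ALL-MTG, against 223 and 182 TPM in ALL-VC (difference 1.31, adjusted p = 0.0201), and Scnn1a, a subunit of the epithelial sodium channel, rose to 43.2 and 21.9 TPM in ALL-MTG, against 4.83 and 8.68 TPM in ALL-VC (difference 2.08, adjusted p = 0.0491). Icam1, an adhesion molecule of AT1 cells and of inflamed cells, rose to 152 and 149 TPM in ALL-MTG, against 66.5 and 76.6 TPM in ALL-VC (difference 1.06, adjusted p = 0.0182). Bhlhe40, a transcriptional repressor, rose to 137 and 159.8 TPM in ALL-MTG, against 58.5 and 63.3 TPM in ALL-VC (difference 1.27, adjusted p = 0.0126). Csf1, the macrophage growth factor, fell to 2.24 and 4.62 TPM in ALL-MTG, against 19.4 and 22.5 TPM in ALL-VC (difference -2.36, adjusted p = 0.0182), with the numbered ALL libraries at 46.7 and 45.8 TPM and the unnumbered ALL library at 1.82 TPM.

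Sfn, the epithelial 14-3-3 protein stratifin, stood at 65.3 and 18.7 TPM in ALL-MTG and at 2.65 and 4.75 TPM in ALL-VC and missed the threshold (adjusted p = 0.0619). C3, the central complement component, stood at 7.27 and 28.9 TPM in ALL-MTG and at 92.9 and 166 TPM in ALL-VC (adjusted p = 0.0645). Of the 100 called genes, 9 lie on chromosome 17, where 708 of the 13502 tested genes lie. The mitochondrial gene mt-Co3 was listed at 2274 and 0.22 TPM in ALL-MTG and at 1271 and 2327 TPM in ALL-VC.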
